A study of Mus musculus with 8 samples.

Results

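The nuclear factor kappaB (NF-kappaB) pathway was examined in mouse embryonic stem cells (mESCs) that carry or lack Importin-13 (IPO13), a nuclear transport receptor, with and without oxidative stress by H2O2. The genes were 10 core components of its canonical and non-canonical branches, picked by name among the 23420 gene symbols of the count tables: the kinase gene *Map3k14*, the adaptor and ligase genes *Traf3* and *Birc3*, the subunit genes *Nfkb1*, *Nfkb2*, *Rela* and *Relb*, the inhibitor genes *Nfkbia* and *Nfkbib*, and the feedback gene *Tnfaip3*. All 10 had counts in every library and all 10 were tested.

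In the canonical branch, receptors such as the TNF receptor activate the IkappaB kinase complex, which marks the inhibitor encoded by *Nfkbia* for destruction and so lets dimers that contain the *Rela* product enter the nucleus. In the non-canonical branch, the NF-kappaB-inducing kinase encoded by *Map3k14* is continuously made and destroyed by a ligase complex that holds the products of *Traf3*, *Traf2*, *Birc2* and *Birc3*, and when it accumulates it drives processing of the *Nfkb2* precursor, the partner of the *Relb* product. *Nfkbia*, *Tnfaip3*, *Birc3*, *Nfkb1*, *Nfkb2* and *Relb* are themselves well-known target genes of NF-kappaB, and the pathway is known to be weakly active in undifferentiated mESCs.

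RNA-seq was performed on 8 libraries in 4 groups of 2. The groups were untreated IPO13+/+ cells, IPO13+/+ cells given 125 µM H2O2 for 1 h and then 2 h of recovery, and IPO13-/- cells under the same pair of conditions. All cells were ES cells from preimplantation blastocysts on a 129 x C57BL/6 background, grown with LIF on gelatin without feeder cells, and each genotype is a line for which the number of clones was not given in the sources used here. The labels do not say whether the replicates were separate cultures, so p-values measure the spread between these libraries, which may be technical.

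Between 60397877 and 73789079 reads per library were counted on genes, so that the smallest level told from 0, taken as 3 counts, lay between 0.0407 and 0.0497 CPM, for counting error only. CPM are the counts of a gene per 1000000 counted reads, and the levels below are CPM after TMM scaling of the library totals. *Ipo13* itself lay between 68.3 and 72.4 CPM in the 4 IPO13+/+ libraries and between 24.9 and 25.9 CPM in the 4 IPO13-/- libraries, lower in the latter but not absent. The 8 mESC markers examined, *Pou5f1* and *Nanog* among them, were all detected. They summed to between 6680 and 6950 CPM in IPO13+/+ and between 5690 and 5930 CPM in IPO13-/- libraries, against 7.5 to 10.5 CPM for 8 fibroblast or feeder markers. Without treatment, 2 of the 8 were higher and 5 lower in IPO13-/- cells at an FDR below 0.05, which 38.2% of all tested genes passed. Mean *Nanog* was 527 CPM in untreated IPO13+/+ and 569 CPM in untreated IPO13-/- cells, and mean *Dppa5a* 1940 and 1290 CPM. Of 8 blood and immune markers 7 were found. Their sum was 11.4 to 12.2 CPM in untreated and 16.6 to 18.2 CPM in treated libraries. Most of it was *Cd68*, with means of 11.1 CPM untreated and 15.7 CPM treated for IPO13+/+, against 10.4 and 16.8 CPM for IPO13-/-. With treatment, 1 of the 7 was called higher and 6 did not pass, for each genotype alike. Median log2 changes of the 7 were 0.17 for IPO13+/+ and -0.66 for IPO13-/-. These medians rest on markers other than *Cd68*, which made up little of the sum, so they are uncertain. The sum of all 7 rose with treatment in both genotypes. The part of these markers in the H2O2 responses below was not tested. Trophectoderm markers summed to between 58 and 68.8 CPM in IPO13+/+ and between 32.9 and 36 CPM in IPO13-/- libraries, and the part of these and of the mESC markers in the genotype differences below was not tested. Fewer cells of a type and less RNA per cell cannot be told apart in bulk libraries.

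After H2O2, *Map3k14* rose in both genotypes, 2.24-fold in IPO13+/+ and 1.7-fold in IPO13-/- cells, and *Birc3* fell in both. *Nfkbia* rose in both genotypes, by 1.2-fold in IPO13+/+ and 1.72-fold in IPO13-/- cells. *Relb* moved in opposite directions, falling in IPO13+/+ and rising in IPO13-/- cells, while *Tnfaip3*, *Nfkb1*, *Nfkb2* and *Rela* rose in IPO13-/- cells and did not pass the test in IPO13+/+ cells. The difference between the genotypes' responses passed for *Nfkbia* in all 14 alternative settings, for *Relb* in 13, and for *Tnfaip3* at an FDR of 0.0469 in the test used here and in 4 alternatives. Before treatment, *Nfkbia* was the gene with the largest genotype difference of the 10, at 0.619-fold of its IPO13+/+ level.

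**Figure D1:**
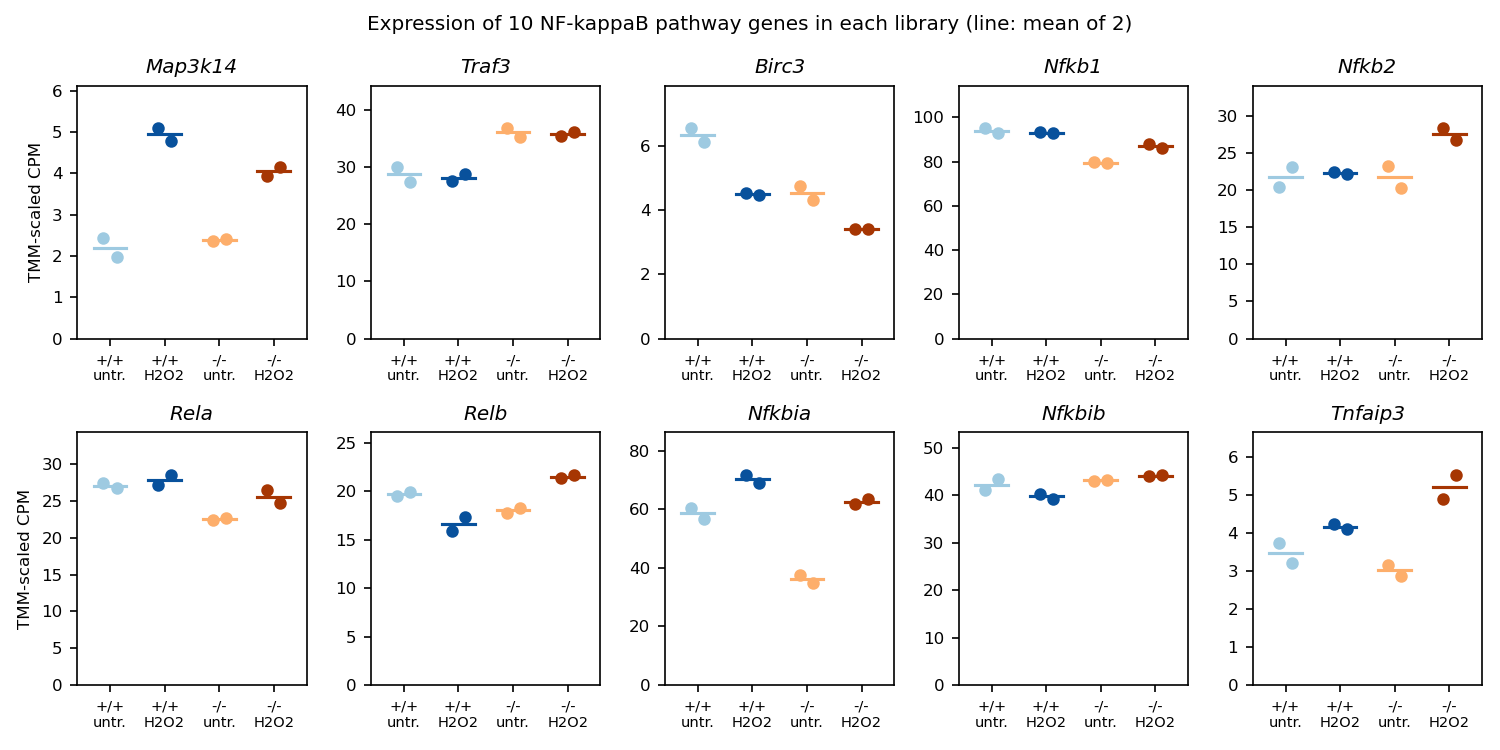
TMM-scaled CPM of each of the 10 genes (vertical axes, each starting at 0) in the 2 libraries of each group (points), with the group mean as a line. Blue marks IPO13+/+ and orange or brown IPO13-/- cells, with light colours for untreated and dark colours for H2O2-treated libraries. *Map3k14* is higher in all 4 treated libraries than in the 4 untreated libraries, and *Nfkbia* is low in the untreated IPO13-/- libraries, at 34.9 and 37.6 CPM.

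A gene was called at a false discovery rate (FDR, Benjamini-Hochberg over all 19424 tested genes) below 0.05 in edgeR's quasi-likelihood test. In IPO13+/+ cells, H2O2 changed 4 of the 10 genes, 2 higher and 2 lower, where 25.3% of all tested genes were called, 11.5% of them as higher and 13.8% as lower, all as shares of the tested genes. In IPO13-/- cells it changed 8 of 10, 7 higher and 1 lower, where 29.4% of all tested genes were called, 14.9% as higher and 14.4% as lower. Only *Map3k14* also reached 2-fold, in IPO13+/+ cells, a size passed by 2.9% of all tested genes there and by 2.89% in IPO13-/- cells. The 2 groups did not overlap in CPM for 6 of the 10 genes in IPO13+/+ and 9 of 10 in IPO13-/- cells, where 55.8% and 59.5% of all tested genes did not overlap. Low genes are called less often, and of the 12198 genes with a mean of at least 1 CPM, as all 10 had, 36.4% were called after H2O2 in IPO13+/+ and 42.3% in IPO13-/- cells. Over the 10 genes, log2 changes had a median of 0.01 in IPO13+/+ and of 0.22 in IPO13-/- cells, beside 0.00 over all tested genes in both genotypes.

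Between untreated genotypes, 5 of the 10 genes passed, with 1 above and 4 below their IPO13+/+ level, where 38.2% of all tested genes were called, 18.7% as higher and 19.4% as lower. After H2O2, 8 of 10 passed, with 5 above and 3 below their IPO13+/+ level, where 36.6% of all tested genes were called, 19.1% as higher and 17.5% as lower. None of the 10 reached 2-fold between genotypes, a size passed by 4.71% of all tested genes without treatment and 4.56% after it. The genotypes did not overlap in CPM for 7 of the 10 genes without treatment and for all 10 after it, where 62.2% and 65% of all tested genes did not overlap. Of the genes with a mean of at least 1 CPM, 53.5% and 50.9% were called. The median log2 difference of the 10 genes was -0.17 without and 0.03 with H2O2, beside 0.00 over all tested genes. The 4 comparisons share libraries, each group entering 2 of them, so they are not independent of each other.

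Whether the H2O2 response differed between genotypes was tested as an interaction, the response in IPO13-/- minus that in IPO13+/+ cells. It was called for 3 of the 10 genes, all with the larger value in IPO13-/- cells, where 2.71% of all tested genes were called, 2.01% as higher and 0.705% as lower, and 4.2% of the genes with a mean of at least 1 CPM. These were *Nfkbia*, *Relb* and *Tnfaip3*. Without replicate 1 of untreated IPO13-/- cells 1 of the 3 calls was left. None reached 2-fold, as 0.144% of all tested genes did. The median interaction of the 10 genes was 0.14 on the log2 scale, beside 0.02 over all tested genes.

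The balance of higher and lower calls over all genes depended on the scaling of the libraries. With library totals in place of TMM factors, 60.5% instead of 45.4% of called genes were higher after H2O2 in IPO13+/+ cells, 67.1% instead of 49% between untreated genotypes and 30.8% instead of 74% in the interaction. The 3 interaction calls above were all for values that stayed above 0 under that scaling, with the call of *Tnfaip3* lost.

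*Map3k14* (11:103219762-103267472, minus strand, GRCm38) encodes the NF-kappaB-inducing kinase, the kinase that starts the non-canonical branch. Its counts were low, 139 to 347 per library. It stood at 2.43 and 1.98 CPM in the untreated IPO13+/+ libraries, 5.1 and 4.79 after H2O2, 2.36 and 2.42 in the untreated IPO13-/- libraries and 3.95 and 4.15 after H2O2. The treated libraries were all higher than the untreated ones, and the treated IPO13-/- libraries lay below the treated IPO13+/+ ones. The rise was 1.17 ± 0.10 (SE) on the log2 scale in IPO13+/+ cells (FDR 9.46e-10), with a 95% interval from 0.95 to 1.38, and 0.76 ± 0.11 in IPO13-/- cells (FDR 2.45e-06), from 0.54 to 0.98. Both of these calls held in each of 11 alternative settings, with ranges of 1.02 to 1.32 and 0.73 to 0.81.

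Without treatment *Map3k14* did not differ past the threshold between genotypes (log2 difference 0.12 ± 0.12, 95% interval -0.13 to 0.36, FDR 0.505), and the groups overlapped. After H2O2 it was 0.82-fold in IPO13-/- relative to IPO13+/+ cells (log2 -0.29 ± 0.09, FDR 0.0164). That call was lost with DESeq2 (FDR 0.114) and without replicate 1 of treated IPO13+/+ (0.146) or of treated IPO13-/- cells (0.119). The interaction was -0.40 ± 0.15, with a 95% interval from -0.71 to -0.09, and did not pass (unadjusted p = 0.0128 from edgeR's test, FDR 0.169). It passed without replicate 1 of untreated IPO13+/+ cells, at -0.55 with an FDR of 0.0405, and in no other of 14 settings. The span of *Map3k14* shares 2613 bp with the transcript gene 1700028N14Rik on the same strand. Overlaps given here and below are of whole gene spans, introns included, and the part in exons was not examined. Reads in shared exons could belong to either gene.

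The genes whose levels over the 8 libraries were most like those of *Map3k14* were *Ikbke*, *Hoxb9* and *Fbxl20*, taken from 12197 other genes with a mean of at least 1 CPM by the root mean square difference of log2 CPM centred on each gene's mean. The difference was 0.077 for *Ikbke*, which encodes an IkappaB kinase-related kinase, 0.081 for *Hoxb9*, a homeobox gene, and 0.084 for *Fbxl20*, an F-box gene. Mean levels of *Ikbke* were 1.48 CPM in untreated and 3.28 in treated IPO13+/+ cells, and 1.54 and 2.78 in IPO13-/- cells. Those of *Hoxb9* were 0.751, 1.63, 0.75 and 1.3 CPM in the same order, and those of *Fbxl20* were 13, 26.2, 13.5 and 24.5 CPM. This is a description of shared patterns across 8 libraries and no test.

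*Traf3* (12:111166370-111267153, plus strand) encodes the adaptor that brings the kinase to its ligase. It lay at 30 and 27.4 CPM in IPO13+/+ libraries before and 27.5 and 28.8 after H2O2, and at 36.8 and 35.3 before and 35.4 and 36.1 after H2O2 in IPO13-/- libraries. All 4 IPO13-/- libraries lay above all 4 IPO13+/+ libraries. The gene was 1.26-fold higher in IPO13-/- cells without treatment (log2 0.33 ± 0.05, FDR 1.17e-05) and 1.27-fold after H2O2 (0.34 ± 0.05, FDR 7.99e-06). Its change with H2O2 did not pass in either genotype, with 95% intervals from -0.14 to 0.08 in IPO13+/+ and -0.12 to 0.09 in IPO13-/- cells. A stretch of 18122 bp of *Traf3* lies opposite the gene 4930595D18Rik, and the strand setting of the counting was not given in the sources used here.

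*Birc3* (9:7848699-7873186, minus strand) encodes a cellular inhibitor of apoptosis that acts as the ligase in the same complex. It was at 6.56 and 6.12 CPM in IPO13+/+ libraries before and 4.53 and 4.46 after H2O2, and at 4.77 and 4.32 before and 3.4 and 3.41 after H2O2 in IPO13-/- libraries. Treated libraries were lower than untreated ones within each genotype, and IPO13-/- libraries were lower than IPO13+/+ ones within each condition. H2O2 lowered it to 0.709-fold in IPO13+/+ (log2 -0.50 ± 0.08, FDR 4.53e-05) and 0.747-fold in IPO13-/- cells (-0.42 ± 0.09, FDR 0.000983), the latter at an FDR of 0.0502 without replicate 1 of untreated IPO13-/- cells. The genotype difference was 0.719-fold without (-0.48 ± 0.08, FDR 3.89e-05) and 0.758-fold with H2O2 (-0.40 ± 0.09, FDR 0.0012). The interaction was 0.08 ± 0.13, with a 95% interval from -0.18 to 0.34. *Birc3* thus moved opposite to *Map3k14* after H2O2 in both genotypes. Its neighbour *Birc2*, a paralog with the same function that was listed among the other adaptors, fell by 0.13 on the log2 scale in IPO13+/+ (FDR 0.0364) and by 0.19 in IPO13-/- cells (FDR 0.00187), and these calls were lost under 9 and 1 of 11 alternatives.

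**Figure D2:**
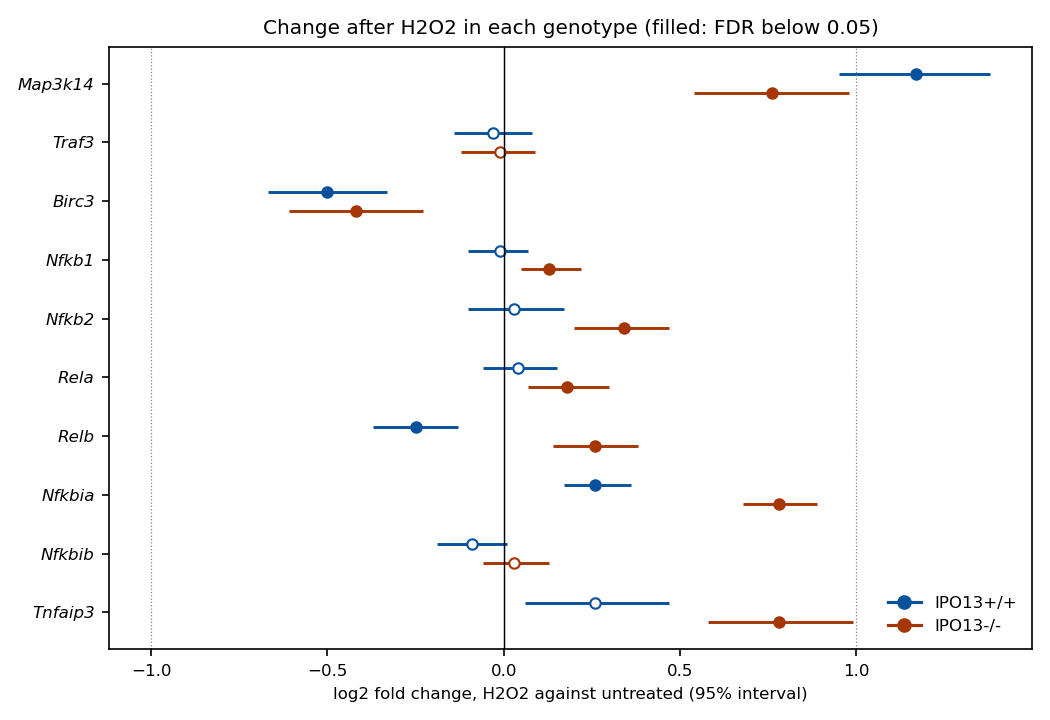
Log2 fold change after H2O2 against untreated cells (horizontal axis) for each of the 10 genes, with 95% intervals, in IPO13+/+ (blue) and IPO13-/- cells (brown). Filled points passed an FDR of 0.05, and dotted lines mark 2-fold. *Map3k14* lies at 1.17 and 0.76, *Birc3* at -0.50 and -0.42, and *Relb* on opposite sides of 0, at -0.25 and 0.26.

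Of the 4 subunit genes, *Nfkb1* and *Rela* encode the usual canonical dimer. *Nfkb1* (3:135584655-135691547, minus strand) stood at 95.2 and 92.8 CPM in IPO13+/+ libraries before and 93.3 and 93 after H2O2, and at 79.7 and 79.5 before and 88 and 86.4 after H2O2 in IPO13-/- libraries. *Rela* (19:5637483-5648130, plus strand) followed the same order, at 27.4 and 26.8, then 27.2 and 28.6, then 22.4 and 22.7, then 26.5 and 24.7 CPM. For both, the untreated IPO13-/- libraries were the lowest. *Nfkb1* was 0.847-fold in untreated IPO13-/- cells (log2 -0.24 ± 0.04, FDR 3.79e-05) and *Rela* 0.832-fold (-0.26 ± 0.05, FDR 0.000231).

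Both canonical subunit genes rose a little with H2O2 in IPO13-/- cells. The log2 change was 0.13 ± 0.04 for *Nfkb1* (FDR 0.0182) and 0.18 ± 0.05 for *Rela* (FDR 0.0104). The call for *Nfkb1* was lost with library totals (FDR 0.0778) and without replicate 1 of untreated (0.0846) or of treated IPO13-/- cells (0.0818), and that for *Rela* without the same libraries (0.0997 and 0.122). In IPO13+/+ cells the 95% interval of the change was -0.10 to 0.07 for *Nfkb1* and -0.06 to 0.15 for *Rela*, and neither passed. After H2O2 the genotype difference did not pass for *Nfkb1* (-0.10 ± 0.04, FDR 0.0784) or *Rela* (-0.12 ± 0.05, FDR 0.0722), though it passed narrowly in 4 and 3 of 11 settings, with FDR from 0.0419 and 0.0423 up, and the block for the replicate number among them (0.0425 and 0.0431). The interaction passed for neither (FDR 0.222 and 0.396). *Nfkb1* shares 3897 bp with the unclassified gene Gm43430 on the same strand.

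*Nfkb2* and *Relb* encode the non-canonical dimer. *Nfkb2* (19:46304320-46312385, plus strand) lay at 20.5 and 23.2 CPM in IPO13+/+ libraries before and 22.5 and 22.2 after H2O2, and at 23.3 and 20.3 before and 28.4 and 26.8 after H2O2 in IPO13-/- libraries. The treated IPO13-/- libraries stood above all others and the other 3 groups overlapped. It rose 1.26-fold in IPO13-/- cells (log2 0.34 ± 0.06, FDR 0.000172) and was 1.23-fold higher there than in IPO13+/+ cells after H2O2 (0.30 ± 0.06, FDR 0.000389). In IPO13+/+ cells the change was 0.03 ± 0.06, with a 95% interval from -0.10 to 0.17, and without treatment the genotypes stood at a ratio of 0.999. The interaction, 0.30 ± 0.09, did not pass (FDR 0.0721), but did so with a block for the replicate number (0.30, FDR 0.00714) and without replicate 1 of untreated IPO13+/+ cells (0.39, FDR 0.00516). *Nfkb2* overlaps *Psd* by 299 bp and a non-coding gene at its promoter by 1292 bp, both on the opposite strand.

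*Relb* (7:19606217-19629438, minus strand) stood at 19.5 and 19.9 CPM in IPO13+/+ libraries before and 15.9 and 17.3 after H2O2, and at 17.7 and 18.3 before and 21.3 and 21.7 after H2O2 in IPO13-/- libraries. No 2 of the 4 groups overlapped, and the order of the genotypes was opposite before and after treatment. H2O2 lowered *Relb* to 0.842-fold in IPO13+/+ cells (log2 -0.25 ± 0.06, FDR 0.00175) and raised it 1.2-fold in IPO13-/- cells (0.26 ± 0.06, FDR 0.00083). The interaction was 0.51 ± 0.08 (95% interval 0.34 to 0.67, FDR 0.00034). After H2O2, IPO13-/- cells held 1.29-fold more (0.37 ± 0.06, FDR 7.62e-06), while the untreated difference did not pass (-0.14 ± 0.06, FDR 0.0634). The fall in IPO13+/+ cells was lost without replicate 1 of treated IPO13+/+ cells (-0.19, FDR 0.0837) and the interaction without replicate 1 of untreated IPO13-/- cells (0.46, FDR 0.0572).

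*Nfkbia* and *Tnfaip3* encode the main inducible brakes of the pathway, the IkappaB-alpha inhibitor and a ubiquitin-editing enzyme that acts on the receptor complex. RefSeq promoter windows of 250 bases before the start (GRCm38.p6) were at hand for 8 of the 10 genes, all but *Nfkb1* and *Relb*, and were searched on both strands for the kappaB consensus, the degenerate site bound by NF-kappaB dimers. It matched in a window of 4 of these genes, *Nfkbia*, *Tnfaip3*, *Nfkb2* and *Traf3*, and in 7.25% of all 32851 promoter windows. The 8 genes had 11 windows, with more than 1 for *Nfkb2* and *Tnfaip3*, so the share per window is not a share per gene. The windows of *Nfkbia* and *Tnfaip3* are shown because these genes had nearly the same response in each genotype, and that of *Map3k14* because its rise in IPO13+/+ cells was the largest of the 10. Each is written 5′ to 3′ on the strand of the gene, the minus strand for all 3, ends 1 base before the start, and has matches to the consensus in capitals. They cover chr12:55492648-55492897, chr10:19015411-19015660 and chr11:103267402-103267651.
*Nfkbia*: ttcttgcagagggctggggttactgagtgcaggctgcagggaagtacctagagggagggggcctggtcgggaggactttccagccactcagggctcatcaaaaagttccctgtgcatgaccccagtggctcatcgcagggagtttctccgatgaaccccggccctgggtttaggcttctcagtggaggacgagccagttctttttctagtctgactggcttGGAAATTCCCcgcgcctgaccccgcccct
*Tnfaip3*: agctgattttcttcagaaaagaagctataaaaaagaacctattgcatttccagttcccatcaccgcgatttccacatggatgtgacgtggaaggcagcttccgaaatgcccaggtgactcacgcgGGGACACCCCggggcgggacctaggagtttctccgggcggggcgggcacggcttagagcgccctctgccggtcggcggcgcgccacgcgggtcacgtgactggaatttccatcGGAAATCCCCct
*Map3k14*: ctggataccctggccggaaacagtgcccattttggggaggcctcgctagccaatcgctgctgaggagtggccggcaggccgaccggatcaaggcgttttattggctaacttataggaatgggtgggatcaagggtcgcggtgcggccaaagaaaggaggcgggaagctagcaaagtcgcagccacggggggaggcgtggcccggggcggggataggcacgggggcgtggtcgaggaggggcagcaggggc
The *Nfkbia* window held 1 match, 20 to 29 bases before the start. The *Tnfaip3* window held 2, spread from 3 to 125 bases before the start, and a second *Tnfaip3* window further downstream held none. No match was found in the window of *Map3k14*, *Rela*, *Birc3* or *Nfkbib*, which says only that these letters are not there. A match is a description of the sequence and not a measured binding site.

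*Nfkbia* (12:55489410-55492647, minus strand) was at 60.5 and 56.8 CPM in IPO13+/+ libraries before and 71.8 and 69 after H2O2, and at 37.6 and 34.9 before and 61.6 and 63.4 after H2O2 in IPO13-/- libraries. The untreated IPO13-/- libraries lay far below the rest, and the treated IPO13-/- libraries lay between untreated and treated IPO13+/+ libraries. The log2 rise with H2O2 was 0.26 ± 0.05 in IPO13+/+ cells (FDR 0.000129) and 0.78 ± 0.05 in IPO13-/- cells (FDR 1.02e-12). The interaction was 0.52 ± 0.07 (95% interval 0.38 to 0.66, FDR 3.74e-05) and passed in all 14 alternative settings, which ranged from 0.45 to 0.57. The genotype difference was -0.69 ± 0.05 without treatment (FDR 1.1e-11) and -0.17 ± 0.05 after H2O2 (0.888-fold, FDR 0.00558). The latter was lost without replicate 1 of treated IPO13+/+ (FDR 0.105) or of treated IPO13-/- cells (0.0604).

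*Tnfaip3* (10:19000910-19015657, minus strand), with 178 to 342 counts per library, stood at 3.74 and 3.2 CPM in IPO13+/+ libraries before and 4.22 and 4.11 after H2O2, and at 3.16 and 2.87 before and 4.88 and 5.53 after H2O2 in IPO13-/- libraries. The order of the groups was reversed by treatment, with IPO13-/- libraries lowest before and highest after it. It rose 1.72-fold in IPO13-/- cells (log2 0.78 ± 0.10, FDR 6.3e-07). In IPO13+/+ cells the change was 0.26 ± 0.10, just short of the threshold (FDR 0.054), and passed in 5 of 11 alternative settings. After H2O2 it was 1.25-fold higher in IPO13-/- cells (0.32 ± 0.09, FDR 0.00845), a call lost with DESeq2 (0.0927) and without replicate 2 of treated IPO13+/+ (0.0703) or treated IPO13-/- cells (0.149), and without treatment the difference was -0.20 ± 0.11 (FDR 0.159). The interaction of 0.52 ± 0.14 was at an FDR of 0.0469 and passed in only 4 of 14 alternative settings, whose FDR ranged from 0.0102 to 0.257.

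*Nfkbib* (7:28758251-28767512, minus strand) encodes IkappaB-beta, an inhibitor that is less inducible. It lay at 41.1 and 43.3 CPM in IPO13+/+ libraries before and 40.3 and 39.1 after H2O2, and at 43 and 43.2 before and 43.9 and 44.3 after H2O2 in IPO13-/- libraries. Its range over all 8 libraries was narrow. Neither response to H2O2 passed, with 95% intervals of -0.19 to 0.01 in IPO13+/+ and -0.06 to 0.13 in IPO13-/- cells. After H2O2 it was 1.11-fold higher in IPO13-/- cells (log2 0.15 ± 0.05, FDR 0.0119), which was lost with DESeq2 (FDR 0.0523) and without replicate 2 of treated IPO13+/+ (0.141) or treated IPO13-/- cells (0.0678). It overlaps *Ccer2* and *Sirt2* on the opposite strand, by 718 and 778 bp.

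**Figure D3:**
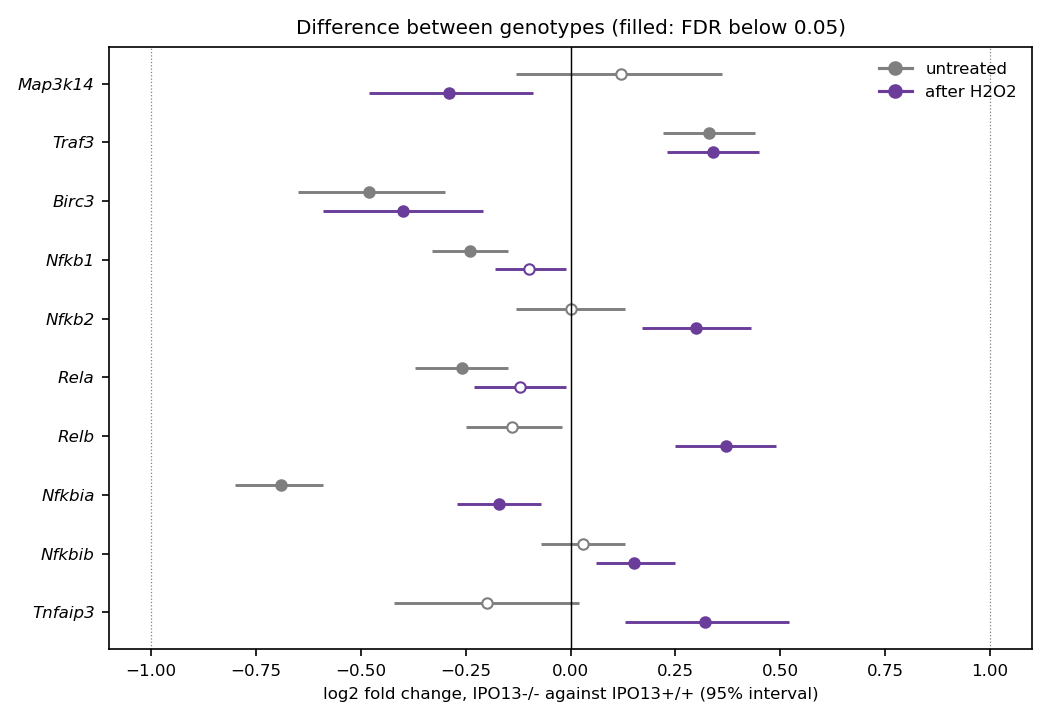
Log2 difference of IPO13-/- against IPO13+/+ cells (horizontal axis) for each of the 10 genes, with 95% intervals, without treatment (grey) and after H2O2 (purple). Filled points passed an FDR of 0.05, and dotted lines mark 2-fold. *Nfkbia* moves from -0.69 without treatment to -0.17 after H2O2, whereas *Traf3* stays at 0.33 and 0.34 and *Birc3* at -0.48 and -0.40.

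Per kb of exon, mean levels in untreated IPO13+/+ cells were lowest for *Map3k14*, at 0.337 ± 0.0481 CPM per kb (SD, n = 2), and *Tnfaip3*, at 0.480 CPM per kb, followed by *Birc3* at 1.27. *Traf3*, *Nfkb2* and *Relb* lay at 3.91, 4.77 and 5.07, *Nfkb1* and *Rela* at 7.79 and 8.82, and the inhibitor genes *Nfkbib* and *Nfkbia* highest, at 19.5 and 36.4 CPM per kb. The order of *Map3k14* and *Tnfaip3* was the other way round in treated IPO13+/+ cells, at 0.755 and 0.576 CPM per kb, and *Relb* and *Nfkb2* changed places in treated IPO13+/+ and in both IPO13-/- groups. *Traf3* stood above *Nfkb2* and *Relb* in untreated IPO13-/- cells, at 4.91, 4.76 and 4.62 CPM per kb. In treated IPO13-/- cells *Tnfaip3* stood above *Birc3*, at 0.72 and 0.68 CPM per kb. Exon lengths are the union of annotated exons, and isoforms in use may be shorter.

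Other genes of the pathway were taken from 5 lists that group them by role. Those given below without a standard error were chosen after their values were seen. Of the 95 tested genes on the lists, 27.4% were called after H2O2 in IPO13+/+ and 35.8% in IPO13-/- cells, 44.2% between untreated genotypes, 41.1% after H2O2 and 5.26% in the interaction, shares that lie between those of all tested genes and of genes with a mean of at least 1 CPM given above, except in the interaction, where they were 2.71% and 4.2%. Among 29 tested receptors, ligands and adaptors, 2 rose and 6 fell after H2O2 in IPO13+/+ cells and 4 rose and 5 fell in IPO13-/- cells, in all 27.6% and 31% of the list where 25.3% and 29.4% of all tested genes were called, with median log2 changes of -0.07 and -0.01 beside 0.00 over all tested genes. *Cd40*, a receptor that signals through the non-canonical branch, had only 10 to 53 counts per library and rose in both genotypes (log2 1.13 ± 0.35, FDR 0.0185, and 1.01 ± 0.26, FDR 0.00373), though the calls were lost in 4 and 3 of 11 settings, DESeq2 among them in both (FDR 0.0793 and 0.056). *Tnfrsf12a*, the receptor for the cytokine TWEAK, was counted 865 and 947 times in the IPO13+/+ libraries before and 1116 and 1146 times after H2O2, and 562 and 498 and then 1045 and 1077 times in the IPO13-/- libraries. The untreated IPO13-/- libraries were low, and after H2O2 the genotypes differed by 0.02 on the log2 scale, with a 95% interval from -0.10 to 0.15. *Tnfrsf12a* rose by 0.32 ± 0.06 on the log2 scale in IPO13+/+ (FDR 0.000279) and by 1.12 ± 0.07 in IPO13-/- cells (FDR 2.88e-13), with an interaction of 0.80 ± 0.09 (FDR 5.3e-06), the only one of the list that was called. The other rises in IPO13-/- cells were of *Ltbr*, at 0.39, and *Tnfrsf1a*, at 0.28, and the falls there were of *Tlr3*, *Tnfsf11*, *Tnfsf12*, *Tlr2* and *Birc2*, between -0.87 and -0.19. Of 11 settings, the call was lost in 5 for *Tlr3*, 4 each for *Tnfsf12* and *Ltbr*, 3 for *Tlr2*, 1 for *Birc2* and 0 for *Tnfsf11* and *Tnfrsf1a*.

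Between untreated genotypes, 8 genes of this list were higher and 7 lower in IPO13-/- cells, and after H2O2 5 were higher and 4 lower. In all, 51.7% and 31% of the list were called, where 38.2% and 36.6% of all tested genes were. The 4 lower after H2O2 were *Irak2*, *Ltbr*, *Myd88* and *Birc2*, between -0.51 and -0.16, with calls lost in 3 of 11 settings for *Myd88* and 2 for *Birc2*. *Tnfrsf11a*, the receptor RANK, was higher in IPO13-/- cells in both conditions (log2 1.26 ± 0.29, FDR 0.000904, and 1.30 ± 0.31, FDR 0.00123), with 14 to 16 counts in IPO13+/+ and 27 to 38 in IPO13-/- libraries. *Il1r1*, an interleukin receptor gene, was higher after H2O2 (1.11 ± 0.18, FDR 1.22e-05), with *Traf2*, at 0.25, *Traf6*, at 0.51, and *Cd40*, at 0.95, being the others, and the last was lost in 3 of 11 settings. *Cd40* was also higher without treatment (1.07 ± 0.36, FDR 0.0186), a call lost in 3 of 11 settings. *Traf5*, an adaptor gene, was also higher without treatment (1.41 ± 0.45, FDR 0.0129), but its IPO13+/+ counts of 17 and 3 were far apart, and the call was lost with DESeq2 (FDR 0.0842) and without replicate 2 of IPO13+/+ cells (0.62, FDR 0.271) or replicate 1 of IPO13-/- cells (0.92, FDR 0.357). *Lta*, which encodes lymphotoxin-alpha, had 3 and 7 counts in untreated IPO13+/+ libraries and 0 in both untreated IPO13-/- libraries. It was called lower (FDR 0.0197), a call lost on leaving out any of 3 libraries, and with levels this near the floor no fold change is given.

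Of 15 kinases and their partners, 2 rose and 1 fell after H2O2 in IPO13+/+ cells and 5 rose and 3 fell in IPO13-/- cells, with medians of 0.06 and 0.01. In all, 20% and 53.3% of the list were called, where 25.3% and 29.4% of all tested genes were. Of genes with a mean of at least 1 CPM, 36.4% and 42.3% were called. *Ikbke* was counted 106 and 96 times in the IPO13+/+ libraries before and 222 and 228 times after H2O2, and 106 and 104 and then 169 and 182 times in the IPO13-/- libraries. Treated libraries were higher throughout. It rose by 1.15 ± 0.12 on the log2 scale in IPO13+/+ (FDR 2.67e-08) and 0.86 ± 0.13 in IPO13-/- cells (FDR 5.43e-06). *Map3k8*, a kinase upstream of MAP kinases, rose in IPO13-/- cells (0.67 ± 0.22, FDR 0.0214), a call lost in 4 of 11 settings, and stood at 0.34 ± 0.22 in IPO13+/+ cells (FDR 0.318), with no interaction passed (FDR 0.705). *Card10*, a scaffold gene, rose in both genotypes (0.25, FDR 0.000238, and 0.46, FDR 2.13e-08). *Bcl10* fell by 0.15 in IPO13+/+ cells (FDR 0.0221), and in IPO13-/- cells *Tab1* and *Chuk* rose while *Ripk2*, *Ikbkb* and *Tab3* fell, with log2 changes between -0.28 and 0.21. Of the IkappaB kinase complex itself, *Chuk* stood at 0.12 and *Ikbkb* at -0.17 there. Calls were lost in 8 of 11 settings for *Chuk*, 7 for *Tab1*, 6 each for *Tab3* and *Bcl10*, 5 for *Ikbkb* and 3 for *Ripk2*.

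Between genotypes, 4 kinase genes were higher and 3 lower in IPO13-/- cells without treatment, and 2 higher and 3 lower after H2O2. In all, 46.7% and 33.3% of the list were called, where 38.2% and 36.6% of all tested genes were. *Map3k3*, at 0.21 and 0.18, and *Tbk1*, at -0.15 and -0.13, were called in both conditions, *Ikbkg*, *Ripk2* and *Card10* before and *Map3k7* after H2O2. Of 11 settings, 4 lost each call of *Tbk1* and that of *Ikbkg*, 3 those of *Ripk2* and *Map3k7*, 2 that of *Card10* and 0 those of *Map3k3*. *Tab1*, a subunit of the TAK1 complex, was lower in IPO13-/- cells in both conditions (log2 -0.42 ± 0.08, FDR 6.03e-05, and -0.34 ± 0.07, FDR 0.000552) and its relative *Tab3* higher (0.24 ± 0.05, FDR 0.000523, and 0.20 ± 0.05, FDR 0.00284). The calls after H2O2 were lost without replicate 1 of treated IPO13+/+ cells for *Tab1* (-0.24, FDR 0.0501) and without replicate 1 of treated IPO13-/- cells for *Tab3* (0.17, FDR 0.0507). None of the 15 was called in the interaction by edgeR, limma-voom or DESeq2, and 3 of them, *Ikbkg*, *Card10* and *Bcl10*, had an unadjusted p under 0.05 in edgeR’s test.

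Of 7 other Rel and IkappaB family genes, 2 fell and none rose after H2O2 in each genotype, with medians of -0.14 and -0.07. The calls were 28.6% of the list in each genotype, where 25.3% and 29.4% of all tested genes were called. *Bcl3*, which encodes an IkappaB-related co-factor, was counted 3506 and 3754 times in the IPO13+/+ libraries before and 2429 and 2331 times after H2O2, and 4019 and 3074 and then 1997 and 1882 times in the IPO13-/- libraries. It fell to 0.656-fold in IPO13+/+ (log2 -0.61 ± 0.05, FDR 1.67e-10) and 0.597-fold in IPO13-/- cells (-0.74 ± 0.05, FDR 3.38e-12). *Rel*, the gene of the c-Rel subunit, was called lower in both (-0.33 ± 0.11, FDR 0.0265, and -0.25 ± 0.09, FDR 0.0442), calls lost in 6 and 7 of 11 settings. *Rel* was higher in IPO13-/- cells before (0.52 ± 0.10, FDR 8.13e-05) and after H2O2 (0.59 ± 0.11, FDR 5.21e-05), as was *Nfkbie*, the gene of IkappaB-epsilon (0.30 ± 0.08, FDR 0.00545, and 0.63 ± 0.09, FDR 1.11e-06). The first of these for *Nfkbie* was lost without replicate 1 of untreated IPO13+/+ or replicate 2 of untreated IPO13-/- cells. These 2 made up the calls without treatment, 28.6% of the list where 38.2% of all tested genes were called. After H2O2, 3 genes were higher and 2 lower, in all 71.4% of the list where 36.6% of all tested genes were called. Those seen besides were *Nkiras2*, at 0.25, *Bcl3*, at -0.18, and *Nfkbiz*, at -0.41, the calls of the latter 2 being lost in 1 and 4 of 11 settings.

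Among 16 tested negative regulators and ubiquitin enzymes, 2 rose and 2 fell after H2O2 in IPO13+/+ and 3 rose and 2 fell in IPO13-/- cells, with medians of -0.03 and -0.01. In all, 25% and 31.2% of the list were called, where 25.3% and 29.4% of all tested genes were. *Nlrc5*, which is best known as an activator of MHC class I genes and was listed for a reported inhibitory role, was counted 28 and 27 times in the IPO13+/+ libraries before and 154 and 151 times after H2O2, and 56 and 39 and then 106 and 111 times in the IPO13-/- libraries. It started higher and ended lower in IPO13-/- cells. It rose 5.52-fold in IPO13+/+ (log2 2.47 ± 0.17, FDR 5.78e-12) and 2.48-fold in IPO13-/- cells (1.31 ± 0.16, FDR 2.9e-07), with an interaction of -1.15 ± 0.25 (FDR 0.00941), again the only one of its list. That interaction was lost with limma-voom (FDR 0.0558), with DESeq2 (0.0884) and without either untreated IPO13-/- library (0.205 and 0.0533). *Rbck1*, a subunit of the linear ubiquitin ligase, rose in both genotypes by 0.26 and 0.25. *Tnip1*, at 0.23, rose in IPO13-/- cells, while *Cul1* and *Tax1bp1* fell in IPO13+/+ and *Cul1* and *Rnf31* in IPO13-/- cells, between -0.23 and -0.13. The call of *Tax1bp1* was lost in 5 of 11 settings and those of *Cul1* in 3 and 4. Between genotypes, 3 were higher and 5 lower in IPO13-/- cells in each condition, in all 50% of the list. Of all tested genes, 38.2% were called without treatment and 36.6% after H2O2. *Rbck1* was higher and *Cul1* and *N4bp1* lower in both. *Nlrc5* was called higher before and lower after H2O2 (0.78 ± 0.22, FDR 0.0058, and -0.38 ± 0.13, FDR 0.0194), the first lost without replicate 1 of untreated IPO13-/- cells (FDR 0.0915) and the second in 4 of 11 settings, DESeq2 among them (0.197). *Tnip1*, *Ube2n* and *Commd1* passed as lower before H2O2, calls lost in 0, 2 and 8 of 11 settings. *Btrc* passed as higher and *Zc3h12a* and *Cyld* as lower after it, calls lost in 3, 1 and 0. *Itch*, a ubiquitin ligase gene, was higher in both (0.32 ± 0.04, FDR 6.68e-07, and 0.36 ± 0.04, FDR 8.12e-08).

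Among 28 tested target genes, 7 rose and 2 fell after H2O2 in IPO13+/+ and 8 rose and 2 fell in IPO13-/- cells. In all, 32.1% and 35.7% of the list were called, where 25.3% and 29.4% of all tested genes were. Of genes with a mean of at least 1 CPM, 36.4% and 42.3% were called. The list had a median log2 change of 0.00 and 0.19, beside 0.00 over all tested genes. *Cxcl10*, a chemokine gene, was counted 38 and 32 times in the IPO13+/+ libraries before and 99 and 84 times after H2O2, and 56 and 39 and then 120 and 130 times in the IPO13-/- libraries. It rose by 1.38 ± 0.19 in IPO13+/+ (FDR 2.45e-06) and 1.52 ± 0.17 in IPO13-/- cells (FDR 3.57e-08). *Ptgs2*, which encodes cyclooxygenase-2, rose by 0.93 ± 0.07 (FDR 1.51e-11) and 1.34 ± 0.07 (FDR 6.87e-15), and *Sdc4*, a heparan sulphate proteoglycan gene, by 0.80 ± 0.04 (FDR 1.97e-14) and 1.15 ± 0.04 (FDR 1.33e-17). *Plau*, the urokinase gene, rose by 0.90 ± 0.27 (FDR 0.0153) and 1.16 ± 0.29 (FDR 0.00265) at 23 to 69 counts per library, calls lost in 5 and 3 of 11 settings. The 2 that fell in both genotypes were *Ccnd1*, at -0.38 and -0.25, and *Xiap*, at -0.15 and -0.26. Both calls of *Ccnd1* held in 11 of 11 settings, whereas that of *Xiap* in IPO13+/+ cells was lost in 8, at -0.04 without replicate 1 of untreated IPO13+/+ cells (FDR 0.607), and in IPO13-/- cells in 1. *Tnf*, with 0 to 2 counts per library, and *Il6*, with 1 to 11, were too low for a change to be read.

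The interaction was called for 3 of the 28 target genes, or 10.7%, all with the larger value in IPO13-/- cells. Of all tested genes 2.71% were called, 2.01% as higher and 0.705% as lower. Of genes with a mean of at least 1 CPM, 4.2% were called. The 3 target genes were *Ptgs2* (0.41 ± 0.10, FDR 0.0141), *Sdc4* (0.34 ± 0.06, FDR 0.00094) and *Icam1*, an adhesion molecule gene (0.29, FDR 0.0117). The calls were lost in 8, 2 and 5 of 14 settings, and none of the 3 was left without replicate 1 or without replicate 2 of untreated IPO13-/- cells. The median interaction of the list was 0.17, beside 0.02 over all tested genes. The list medians include *Cxcl1*, *Cxcl2*, *Ccl2*, *Ccl5*, *Vcam1* and *Sele*, whose group means all lay under the floor of 3 counts. Log2 changes of such genes are uncertain. Between untreated genotypes 1 target gene was higher and 9 were lower in IPO13-/- cells, in all 35.7% of the list where 38.2% of all tested genes were called, with a median of -0.22. After H2O2 5 were higher and 7 lower, in all 42.9% where 36.6% of all tested genes were called, with a median of -0.09. *Vegfa* was the higher one before H2O2, and *Vegfa*, *Icam1*, *Gadd45b*, *Ptgs2* and *Cxcl10* were higher after it, between 0.19 and 0.57. The calls were lost in 2 of 11 settings for *Vegfa* before H2O2, and after it in 3 for *Gadd45b*, 2 for *Cxcl10*, 1 each for *Icam1* and *Ptgs2* and 0 for *Vegfa*. *Cflar*, the gene of an inhibitor of caspase-8 activation, was counted 340 and 349 times in the IPO13+/+ libraries before and 300 and 336 times after H2O2, and 182 and 125 and then 152 and 149 times in the IPO13-/- libraries, lower in each IPO13-/- library than in any IPO13+/+ library by CPM as well. It was 0.443-fold without (log2 -1.17 ± 0.10, FDR 4.27e-10) and 0.513-fold with H2O2 (-0.96 ± 0.10, FDR 2.36e-08). *Irf1*, an interferon response factor gene, was 0.616-fold after H2O2 (-0.70 ± 0.06, FDR 1.48e-10). It was called lower without treatment too, at means of 14.8 CPM in IPO13-/- and 22.3 CPM in IPO13+/+ cells (log2 -0.61 to -0.51 over 11 settings). *Myc* and *Sod2* were among the other genes called lower in both conditions. Their untreated means were 56.4 and 256 CPM in IPO13+/+ and 36.8 and 187 CPM in IPO13-/- cells.

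**Figure D4:**
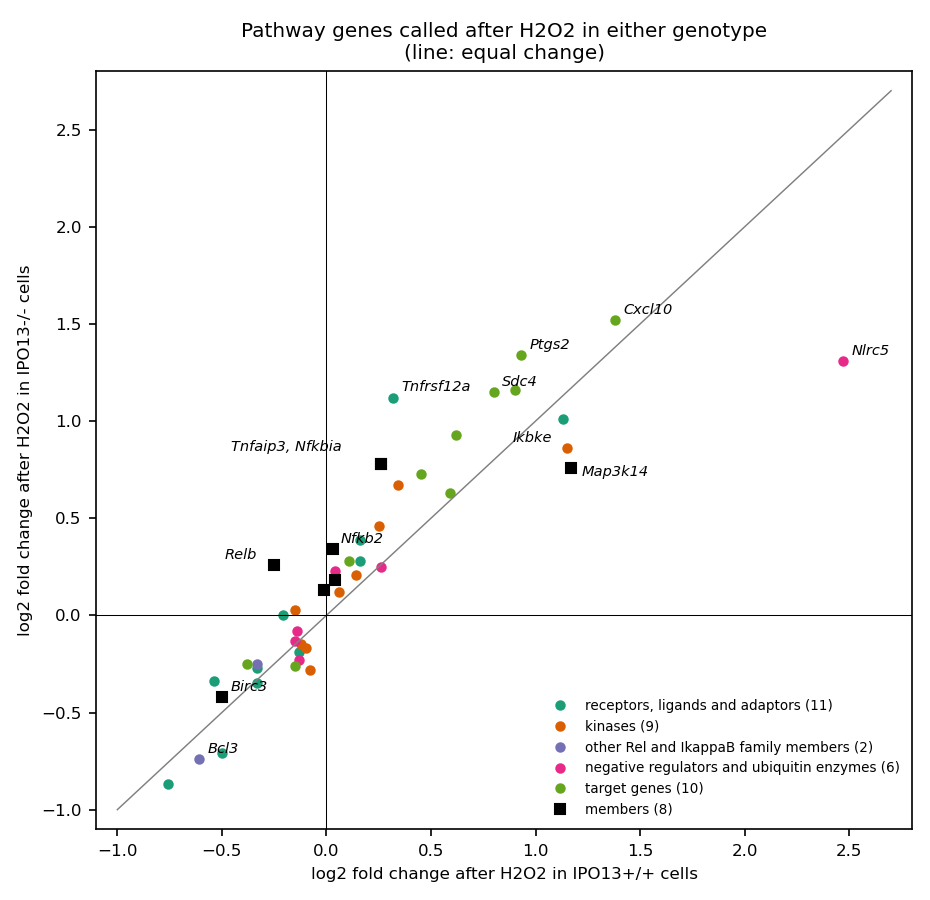
Log2 fold change after H2O2 in IPO13+/+ cells (horizontal axis) against that in IPO13-/- cells (vertical axis) for the 8 of the 10 core genes (black squares) and the 38 other pathway genes (coloured by list) called in either genotype, with a line at equal change. Points above the line had the larger value in IPO13-/- cells, among them *Nfkbia*, *Tnfaip3*, *Relb*, *Tnfrsf12a*, *Ptgs2* and *Sdc4*, and *Map3k14*, *Ikbke* and *Nlrc5* lie below it.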

How the data were processed

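Poly(A) RNA of 8 mESC libraries, 2 in each of 4 groups, was sequenced from paired ends. Per the labels, reads were mapped to mm10, and the submitters' processing notes name bcl2fastq, STAR 2.3.1, HTSeq and limma. The annotation and strand setting of the counting were not given in the sources used here. The authors deposited whole-number counts per gene symbol and, beside them, CPM, which equalled the count divided by the library total. The deposited CPM were used only for this check.

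Groups were taken from the sample labels. Counts were analysed in R 4.3.3 with edgeR 4.0.16: 19424 of 23420 symbols with at least 1 count in any library, TMM scaling, all 8 libraries in a quasi-likelihood fit with 1 coefficient per group, and Benjamini-Hochberg adjustment over all tested genes, with calls at FDR below 0.05. The biological coefficient of variation was 3.36%. An exact permutation test of 2 against 2 libraries cannot give a two-sided p below 0.333 and was not used. The scripts were tested on simulated data that had 1 spread per gene in all groups, so unequal spread between groups was not examined.

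The alternatives were limma-voom (limma 3.58.1, the study's own method), DESeq2 1.42.0, other scaling factors, a filter on low counts, a block for the replicate number, a fit of the 4 libraries compared, and each library left out. Replicates differed by more than sampling noise, which gives a chi-square per gene of about 1. It was 15 in untreated and 2.26 in treated IPO13+/+ cells, and 4.58 and 6.59 in untreated and treated IPO13-/- cells. The fit used 1 spread per gene for all groups, so standard errors of comparisons with untreated IPO13+/+ cells may be too small. The 10 genes, the lists and the tests were chosen with earlier results of these data known. Of each pathway list and comparison, up to 4 genes past FDR 0.05 and 2-fold were named by size of change or, where there were none, up to 2 past FDR 0.05.
Coordinates are from GENCODE M21 (GRCm38) and promoters from RefSeq.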

Additional observations from a re-analysis of the deposited data

Results flagged for a closer look

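The H2O2 response differed between genotypes, by the interaction term of edgeR's quasi-likelihood fit, for 3 of the 10 core genes and 5 of 95 other pathway genes tested, or 5.26% of the latter, where 2.71% of all tested genes and 4.2% of those with a mean of at least 1 CPM were called. Values are log2 responses in IPO13-/- minus those in IPO13+/+ cells. Among the core genes, *Nfkbia* stood at 0.52 (FDR 3.74e-05), *Relb* at 0.51 (FDR 0.00034) and *Tnfaip3* at 0.52 (FDR 0.0469). *Tnfrsf12a*, the TWEAK receptor gene, stood at 0.80 (FDR 5.3e-06). Target genes were *Sdc4*, at 0.34 (FDR 0.00094), *Icam1*, at 0.29 (FDR 0.0117), and *Ptgs2*, at 0.41 (FDR 0.0141). *Nlrc5*, at -1.15 (FDR 0.00941), was the one with the smaller response in IPO13-/- cells. Of 14 alternative settings, the call was lost in 10 for *Tnfaip3*, 8 for *Ptgs2*, 5 for *Icam1*, 4 for *Nlrc5*, 2 for *Sdc4*, 1 for *Relb* and 0 for *Nfkbia* and *Tnfrsf12a*.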

How the results depend on the processing

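Of the log2 changes of the 10 genes under the alternatives, 509 kept direction and side of the threshold, 29 lost a call, 17 gained one and 25 changed sign, each of the last for a change that was not called. The number of the 10 genes called fell from 8 to 5 with DESeq2 between genotypes after H2O2, where calls over all tested genes fell from 7115 to 5604. Leaving out 1 library gave 3 to 5 genes after H2O2 in IPO13+/+ cells, 5 to 8 in IPO13-/- cells, 5 to 6 between untreated genotypes, 6 to 10 after H2O2 and 1 to 4 in the interaction. The lowest counts, 5 in IPO13-/- cells and 1 in the interaction, came without replicate 1 of untreated IPO13-/- cells. Calls over all tested genes also became fewer in these comparisons without that library. The causes were not tested.

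Sign changes were near 0. With library totals, the filter on low counts and the 4 libraries compared, in that order, *Nfkb1* after H2O2 in IPO13+/+ cells became 0.03, 0.02 and 0.01, *Traf3* there 0.01, 0.00 and 0.00, and *Nfkb2* between untreated genotypes 0.08, 0.01 and 0.01. The interaction of *Traf3* became -0.06 with library totals and -0.00 with the filter. Leaving out 1 library gave -0.03 to 0.01 for *Nfkb1*, -0.05 to 0.12 for *Nfkb2* and -0.09 to 0.04 for *Traf3* after H2O2 in IPO13+/+ cells, and -0.02 to 0.02 for *Traf3* in IPO13-/- cells. Between untreated genotypes it gave -0.02 to 0.27 for *Map3k14*, -0.09 to 0.10 for *Nfkb2* and -0.01 to 0.07 for *Nfkbib*, and for the interaction of *Traf3* -0.06 to 0.08. A lone library left in a group was assumed to vary like the others.

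Deviations of same-numbered libraries from their group means were correlated over 8620 genes. Untreated IPO13+/+ cells correlated at 0.36 with untreated and 0.64 with treated IPO13-/- cells, and the latter groups at 0.35 with each other. Correlations with treated IPO13+/+ cells ran from -0.089 to -0.0016. Replicate number thus went with a shared difference in all groups but treated IPO13+/+ cells, and whether the libraries were paired cannot be told from these values. With a block for the replicate number, 5, 8, 6, 10 and 4 of the 10 genes were called, in the order of the comparisons above. Of 19424 tested genes, 5802, 6525, 8085 and 7787 were then called in the first 4 comparisons, instead of 4908, 5704, 7411 and 7115. The interaction calls over all genes rose from 527 to 1291. Those calls numbered 255 with limma-voom, 294 with DESeq2, 349 with the filter and 73 without replicate 1 of untreated IPO13-/- cells. Of called genes after H2O2 in IPO13+/+ cells, 56% were higher with the filter and 61.1% with the 4 libraries compared. *Map3k14* and *Tnfaip3*, with 139 to 347 counts per library, had the widest intervals of the 10 genes.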
